A study of Mus musculus with 24 samples.

Results

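The 9 genes described here encode the 5 kainate receptor subunits, Grik1, Grik2, Grik3, Grik4 and Grik5, and 4 metabotropic glutamate receptors, Grm2, Grm3, Grm5 and Grm7. They were taken by gene name from a table of 22314 named lines, and all 9 passed the filter on low values that left 18364 genes for testing. RNA came from the whole hippocampus of mouse pups put through hypoxia-ischemia on postnatal day 10, a model of perinatal brain injury that injures the ipsilateral side of the brain. The mice were labelled Neil1-KO, Neil2-KO or wild type (WT), Neil1 and Neil2 being DNA glycosylases that remove oxidized bases, and the ipsilateral and the contralateral hippocampus were each sequenced at 3 h and at 6 h. Every combination of genotype, side and time had 2 libraries, numbered as biological replicates, which made 24 libraries in 12 groups. All animals, WT included, had hypoxia-ischemia and none was a sham, so the contralateral side is the side of the same insult that is opposite to the injury, not an untreated hippocampus. The labels give neither the alleles nor the sex of the pups, nor from which moment the hours were counted.

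Glutamate, the main excitatory transmitter of the hippocampus, acts on ion channel receptors and on metabotropic receptors that work through G proteins. Kainate receptors are glutamate-gated channels. Grik1, Grik2 and Grik3 encode the core subunits, which form channels alone or together, whereas Grik4 and Grik5 encode high-affinity subunits that need a core subunit to work. Kainate receptors are dense at the mossy fibre synapses onto CA3 neurons and are known for the seizures that kainate evokes there. Of the metabotropic receptors, Grm5 belongs to group I, which lies mainly behind the synapse and couples to Gq, phospholipase C and calcium release. Grm2 and Grm3 (group II) and Grm7 (group III) couple to Gi/o and dampen transmitter release, and Grm3 is also expressed by astrocytes.

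The sequences upstream of 3 of the genes are shown because Grik2 and Grm7 were lower and Grm3 higher on the injured side in every animal at both times. Grm5 was lower in every animal as well, but no such sequence was at hand for it. Each is the 250 bases before the annotated start, 5′ to 3′ on the strand of the gene, from RefSeq on GRCm38.p6, at chr10:49788755-49789004 (minus strand) for Grik2, chr6:110645262-110645511 (plus strand, the first of its annotated starts) for Grm7 and chr5:9725353-9725602 (minus strand) for Grm3. Capitals mark the GC box, GGGCGG on either strand.
Grik2: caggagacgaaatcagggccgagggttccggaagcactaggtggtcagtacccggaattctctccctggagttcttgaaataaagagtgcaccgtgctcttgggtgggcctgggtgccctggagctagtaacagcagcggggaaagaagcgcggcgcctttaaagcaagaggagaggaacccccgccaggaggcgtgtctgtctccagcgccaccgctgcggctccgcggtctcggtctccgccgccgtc
Grm7: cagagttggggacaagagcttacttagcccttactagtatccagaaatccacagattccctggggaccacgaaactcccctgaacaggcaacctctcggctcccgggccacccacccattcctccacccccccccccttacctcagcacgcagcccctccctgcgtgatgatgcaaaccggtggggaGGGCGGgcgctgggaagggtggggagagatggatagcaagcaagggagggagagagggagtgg
Grm3: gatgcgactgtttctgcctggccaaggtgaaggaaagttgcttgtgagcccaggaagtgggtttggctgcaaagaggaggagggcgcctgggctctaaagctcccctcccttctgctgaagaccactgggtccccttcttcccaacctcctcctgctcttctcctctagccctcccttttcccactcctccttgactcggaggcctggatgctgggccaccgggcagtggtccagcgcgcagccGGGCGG
The Grik2 window held no GC box, and the Grm7 and Grm3 windows held 1 each. Such windows were at hand for 7 of the 9 genes, and 6 of these 7 held at least 1 GC box, against 32.7% of 32851 promoter windows of the same length. The AP-1 motif TGANTCA, the CRE TGACGTCA and the EGR motif GCGNGGGCG, which shares letters with the GC box, were also searched on both strands. None of the 7 genes' windows held any of them, against 6.75%, 1.55% and 4.70% of all windows for the AP-1, CRE and EGR motifs. A match or its absence describes these letters only.

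Each library held 17771293 to 29252067 reads, and each receptor gene was read at least 304 times in every library (Grm2 had the fewest, and Grm5 had 1809 to 9874). Values below are the authors' normalized counts, that is, reads divided by a size factor of the library. The knockout labels were checked first. Neil2 averaged 1.09 ± 1.18 in Neil2-KO and 20.7 ± 4.66 in WT libraries, and Neil1 averaged 126 ± 23.3 in the libraries labelled Neil1-KO and 98 ± 22.2 in WT libraries (SD, n = 8 each), so Neil1 was not lower where the label says it is lost. For that reason these mice are called labelled Neil1-KO throughout. A pair of ipsilateral libraries stood apart, both at 6 h. The labelled Neil1-KO replicate 2 had the lowest summed neuron markers (71504) and the highest summed astrocyte (58391), microglia (9872) and endothelial markers (14263) of all libraries. In the WT replicate 2, the summed thalamus markers were the highest of all libraries (3602). This library also had the highest summed striatum markers of the ipsilateral libraries (3498), and 335 counts of Prox1, a granule cell marker, against 1463 to 4309 in the other libraries. The part of these values in its receptor counts was not tested. Summed choroid plexus markers ran from 295 to 37406 over the libraries. At 6 h they were 32118 and 29422 contralateral against 579 and 574 ipsilateral in WT. Labelled Neil1-KO went the other way at 6 h, with 454 and 370 contralateral against 12323 and 21289 ipsilateral. The part of these sums in the receptor counts was not tested. Xist was high on both sides in 3 animals, 1 labelled Neil1-KO at each time and 1 Neil2-KO at 6 h. The labelled Neil1-KO animal at 6 h was replicate 2, whose ipsilateral library stood apart. Leaving out that library and leaving out the animals with high Xist are thus not separate checks. Without these animals, 1 library was left in each group concerned.

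On the injured side, most of these receptor genes were lower than on the opposite side, and Grm5 fell the furthest. Over all genotypes at 6 h, Grik2, Grik3, Grik4, Grik5, Grm5 and Grm7 fell and Grm3 rose, while Grik1 and Grm2 did not pass the test. At 3 h, Grik2, Grik3, Grik5, Grm5 and Grm7 had already fallen and Grik1 rose. A gene is said to rise or fall where the adjusted p of limma, a linear model fitted to log2(normalized count + 1) of all genes with a spread shared by all 12 groups, was under 0.05. Thus 7 of the 9 genes were called at 6 h, where 48.7% of all genes tested were called, 6 of them lower (24.7% of all genes) and 1 higher (24%). At 3 h, 6 of the 9 were called, with 31.6% of all genes called, 5 lower (17.4%) and 1 higher (14.1%). The median log2 fold change of the 9 genes, ipsilateral over contralateral, was -0.61 at 6 h and -0.27 at 3 h, and the median of all genes tested was 0.02 and 0.01 at these times.

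Markers of neurons moved the same way. All 10 neuron markers fell at 6 h and 7 of 10 at 3 h, among them Map2, which encodes a dendritic microtubule protein (log2 fold change -0.88 ± 0.09 SE at 6 h). The summed neuron markers were 71504 to 136181 in the 6 ipsilateral libraries and 149479 to 175097 in the 6 contralateral libraries at 6 h, and 113273 to 140805 against 159550 to 173956 at 3 h. Endothelial markers moved the other way, with 5 of 8 higher at each time and, at 6 h, 1 lower, and Cdh5, an adhesion protein of vessel walls, rose by 1.51 ± 0.15 at 6 h. Their sums were 5968 to 14263 in ipsilateral and 4541 to 5105 in contralateral libraries at 6 h, and 6749 to 8542 against 4189 to 5212 at 3 h. Markers of hippocampal subfields fell in 10 of 11 cases at 6 h and in 9 of 11 at 3 h, their sums being 7643 to 16676 in ipsilateral and 24288 to 30600 in contralateral libraries at 6 h. No neuron, subfield or astrocyte marker was at 0 in any library. In such bulk RNA, fewer neurons and less receptor RNA in each neuron cannot be told apart, and the part of the markers in the receptor results was not tested.

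**Figure D1:**
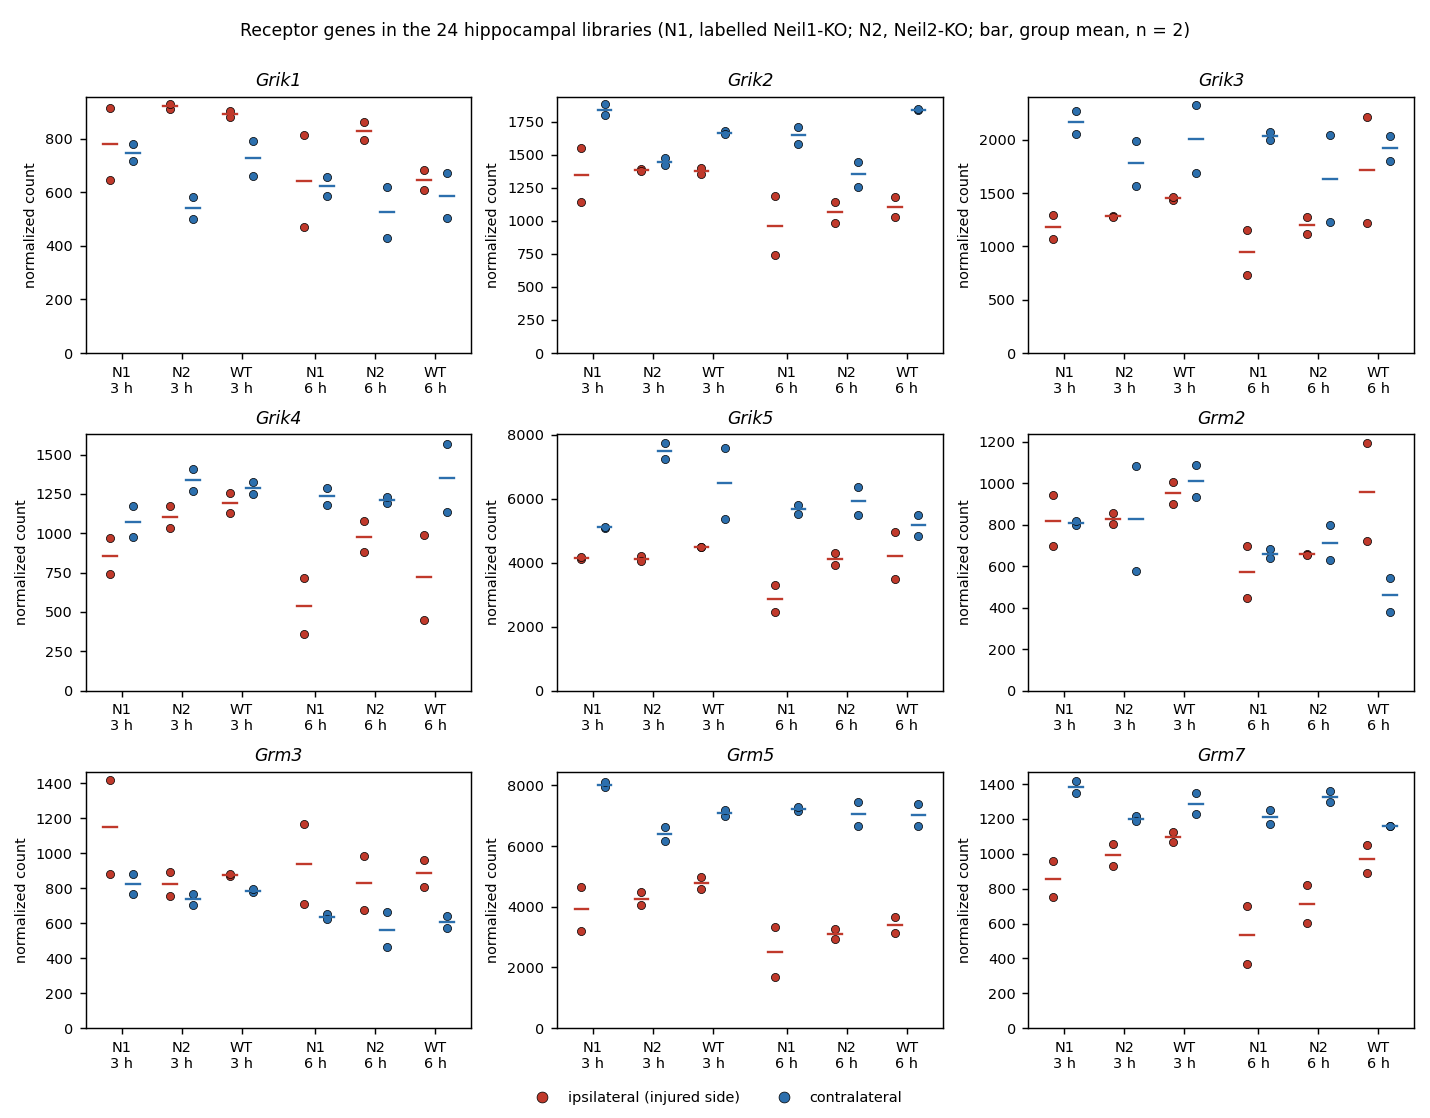
Normalized counts of the 9 receptor genes (y axis, from 0) in the 24 libraries by genotype and time (x axis; N1, labelled Neil1-KO; N2, Neil2-KO). Red points are ipsilateral and blue points contralateral libraries, and bars are means of 2; for Grm5, all 6 ipsilateral points at 6 h lie between 1675 and 3653 and all 6 contralateral points between 6654 and 7447.

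Among the core kainate subunits, Grik2 fell, Grik3 fell and Grik1 tended the other way. Grik2, the core subunit of most hippocampal kainate receptors, had 738, 1083 and 1187 normalized counts (lowest, median and highest of 6) in ipsilateral libraries at 6 h, against 1258, 1645 and 1845 in contralateral libraries. The sides did not overlap. The log2 fold change was -0.63 ± 0.10 (SE; limma adjusted p = 3.27e-05), or 0.644 times the contralateral level. At 3 h Grik2 had 1139, 1384 and 1550 counts in ipsilateral and 1424, 1667 and 1879 in contralateral libraries, and the sides overlapped. That smaller difference (-0.27 ± 0.10, limma adjusted p = 0.042) missed the threshold in the fit with the animal as a block (adjusted p = 0.0542) and when any of 15 libraries was left out. Within an animal, Grik2 was lower on the ipsilateral side in 12 of 12, with log2 differences of -1.21 to -0.03.

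By genotype, the Grik2 side difference at 6 h was -0.81 ± 0.17 in labelled Neil1-KO (limma adjusted p = 0.00106), -0.35 ± 0.17 in Neil2-KO (adjusted p = 0.147) and -0.74 ± 0.17 in WT (adjusted p = 0.00476). Labelled Neil1-KO mice had 1187 and 738 counts in ipsilateral libraries and 1579 and 1711 in contralateral libraries. In Neil2-KO mice the ipsilateral counts were 985 and 1142, against 1447 and 1258 on the contralateral side. WT mice had 1177 and 1025 ipsilateral and 1836 and 1845 contralateral counts. The sides did not overlap in any genotype, and the Neil2-KO contralateral counts were below those of WT, a contralateral difference that did not pass the test over both times (-0.33 ± 0.12, limma adjusted p = 0.507). The labelled Neil1-KO difference was -0.47 without its ipsilateral replicate 2 (adjusted p = 0.0312), -0.41 without the animals with high Xist (adjusted p = 0.0373), and not called with only the compared groups (adjusted p = 0.0731). Without the WT ipsilateral replicate 2 at 6 h, the WT side difference was -0.64 and no longer called (adjusted p = 0.0545).

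Grik3, a core subunit found mainly on the presynaptic side of mossy fibres in the hippocampus, fell over all genotypes by 0.59 ± 0.15 on the log2 scale at 3 h (limma adjusted p = 0.00544) and by 0.59 ± 0.15 at 6 h (limma adjusted p = 0.00334). At 3 h the counts were 1072, 1288 and 1467 (lowest, median, highest) in ipsilateral libraries, against 1565, 2024 and 2323 in contralateral libraries, with no overlap. At 6 h they were 734, 1188 and 2215 against 1226, 2017 and 2076. The 2215 belonged to the WT replicate 2 that stood apart, whose animal had 1799 on the contralateral side, and this animal and the Neil2-KO animal with 1279 ipsilateral and 1226 contralateral counts were the 2 of 12 in which Grik3 was not lower. The side difference passed the test within labelled Neil1-KO only, at -0.88 ± 0.26 at 3 h (limma adjusted p = 0.0271) and -1.14 ± 0.26 at 6 h (limma adjusted p = 0.00213). Leaving out the labelled Neil1-KO ipsilateral replicate 2 at 6 h gave -0.82 (adjusted p = 0.0509). At 3 h the call was lost when any of 3 of its own 4 libraries was left out, with adjusted p up to 0.185. Without the animals with high Xist, among them labelled Neil1-KO replicate 2 at 6 h, 1 library was left on each side at either time. The labelled Neil1-KO differences were then -0.94 at 3 h and -0.79 at 6 h, and neither was called. In WT the Grik3 values were -0.45 ± 0.26 at 3 h and -0.22 ± 0.26 at 6 h, and in Neil2-KO -0.46 ± 0.26 and -0.40 ± 0.26, none of them called.

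Grik1, the core subunit that in the hippocampus is expressed mainly by interneurons, rose over all genotypes at 3 h by 0.37 ± 0.13 on the log2 scale (limma adjusted p = 0.034). Ipsilateral libraries had 646, 907 and 931 counts (lowest, median, highest), against 500, 689 and 793 in contralateral libraries, and the sides overlapped. This call was lost when any of 8 libraries was left out and without the animals with high Xist (0.27, adjusted p = 0.053). At 6 h the difference was 0.27 ± 0.13 (limma adjusted p = 0.085), and 0.41 without the labelled Neil1-KO ipsilateral replicate 2 (adjusted p = 0.00639). The difference passed the test in Neil2-KO at both times. Neil2-KO mice had 912 and 931 ipsilateral and 500 and 581 contralateral counts at 3 h (0.77 ± 0.22, limma adjusted p = 0.0358), and 795 and 862 against 619 and 430 at 6 h (0.68 ± 0.22, limma adjusted p = 0.0313). All 4 Neil2-KO animals were higher on the injured side, but leaving out any of the 4 libraries at 3 h, any of 3 at 6 h, or the high-Xist animal at 6 h (0.36) ended the call. In labelled Neil1-KO the differences were 0.04 ± 0.22 at 3 h and -0.00 ± 0.22 at 6 h, and in WT 0.30 ± 0.22 and 0.15 ± 0.22. At 3 h WT mice had 903 and 882 ipsilateral and 660 and 793 contralateral counts. Over both times, Neil2-KO against WT was -0.30 ± 0.16 on the contralateral side (limma adjusted p = 0.614). The ipsilateral value was 0.20 ± 0.16 (limma adjusted p = 0.892), and neither was called. Interneuron markers were called higher in 0 and lower in 0 of 10 cases at 3 h, and higher in 1 (Sst, somatostatin) and lower in 2 (Gad2, which makes GABA, and Calb2, calretinin) at 6 h.

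The high-affinity subunits both fell, Grik5 from 3 h and Grik4 at 6 h. Grik5, which pairs with Grik2 in most brain kainate receptors, had 4040, 4185 and 4498 counts (lowest, median, highest) in ipsilateral libraries at 3 h, against 5097, 6300 and 7746 in contralateral libraries. The sides did not overlap, and the spread was wide on the contralateral side, where both Neil2-KO libraries (7243 and 7746) and 1 WT library (7601) were the highest. The log2 fold change was -0.56 ± 0.10 at 3 h (limma adjusted p = 0.000282) and -0.61 ± 0.10 at 6 h (limma adjusted p = 4.7e-05). At 6 h the counts were 2448, 3707 and 4956 in ipsilateral and 4847, 5520 and 6363 in contralateral libraries. Here the sides overlapped through 1 WT animal, replicate 2, with 4956 ipsilateral and 4847 contralateral counts. Grik5 was lower on the injured side in 11 of 12 animals.

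Within genotypes Grik5 fell in labelled Neil1-KO mice at 6 h, by 0.99 ± 0.17 on the log2 scale (limma adjusted p = 0.000189), and in Neil2-KO at 3 h (-0.86 ± 0.17, limma adjusted p = 0.00394) and 6 h (-0.52 ± 0.17, limma adjusted p = 0.0289). The WT differences were -0.50 ± 0.17 at 3 h (adjusted p = 0.0982) and -0.32 ± 0.17 at 6 h (adjusted p = 0.198). Without both libraries that stood apart, the WT value at 6 h was -0.57 and passed the test (adjusted p = 0.0131). The Neil2-KO call at 6 h was lost without the high-Xist animal (-0.36, adjusted p = 0.353) and without any of 3 of its libraries. At 3 h it was lost without ipsilateral replicate 2 (-0.83, adjusted p = 0.0609).

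Grik4, the high-affinity subunit concentrated in CA3 neurons, fell at 6 h. Its counts at 6 h were 361, 796 and 1075 (lowest, median, highest) in ipsilateral libraries and 1136, 1211 and 1568 in contralateral libraries, with no overlap (-0.87 ± 0.17, limma adjusted p = 0.000391). The lowest 2 were the libraries that stood apart, with 361 in labelled Neil1-KO and 450 in WT, and without both of them the difference was -0.51 and still called (adjusted p = 0.000535). At 3 h the counts were 741, 1083 and 1258 against 975, 1260 and 1405 (-0.24 ± 0.17, limma adjusted p = 0.305), and that difference, at the same size, was called without both libraries that stood apart (adjusted p = 0.0416). Within genotypes at 6 h, the difference was -1.28 ± 0.29 in labelled Neil1-KO (limma adjusted p = 0.00237), -0.32 ± 0.29 in Neil2-KO (adjusted p = 0.483) and -0.998 ± 0.295 in WT (limma adjusted p = 0.0232). The labelled Neil1-KO difference became -0.79 without its ipsilateral replicate 2, and was not called. It was -0.86 and not called without the animals with high Xist, which include the animal of that replicate. With only the compared groups, neither the labelled Neil1-KO nor the WT difference was called. The WT value became -0.43 (adjusted p = 0.359) without ipsilateral replicate 2 and -0.77 (adjusted p = 0.206) without contralateral replicate 2, while without ipsilateral replicate 1 it was -1.57 (adjusted p = 0.00119).

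Grm5, a Gq-coupled receptor of group I, fell the furthest and in every animal. In labelled Neil1-KO mice at 6 h it had 3333 and 1675 counts in ipsilateral libraries, against 7152 and 7274 in contralateral libraries. Neil2-KO mice had 2926 and 3265 on the ipsilateral and 6654 and 7447 on the contralateral side. In WT mice the counts were 3653 and 3143 on the ipsilateral and 6656 and 7403 on the contralateral side. All 6 ipsilateral libraries were thus below all 6 contralateral ones by a wide margin. The log2 fold changes were -1.61 ± 0.21 in labelled Neil1-KO (limma adjusted p = 2.62e-05), -1.19 ± 0.21 in Neil2-KO (limma adjusted p = 0.000719) and -1.05 ± 0.21 in WT (limma adjusted p = 0.00243). Without the labelled Neil1-KO replicate 2 that stood apart, its genotype's value was -1.11 and still called (adjusted p = 0.000139). Over all genotypes Grm5 was at 0.411 times its contralateral level at 6 h (-1.28 ± 0.12, limma adjusted p = 2.06e-07).

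At 3 h Grm5 was already lower, with 3191, 4541 and 4994 counts (lowest, median, highest) in ipsilateral libraries, against 6174, 7093 and 8120 in contralateral libraries, and no overlap. This was 0.6 times the contralateral level (-0.74 ± 0.12, limma adjusted p = 0.000201). The 3 h difference passed the test in labelled Neil1-KO (-1.06 ± 0.21, limma adjusted p = 0.00286; -0.79 and adjusted p = 0.0608 without ipsilateral replicate 1). It missed the threshold in Neil2-KO (-0.59 ± 0.21, adjusted p = 0.0966) and in WT (-0.57 ± 0.21, adjusted p = 0.15), although all 4 of these animals were lower on the injured side. Within animals the log2 difference was -2.12 to -0.48, lower in 12 of 12.

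Neither group II receptor fell. Grm3, found on neurons and astrocytes, was higher on the injured side in 12 of 12 animals, by 0.09 to 0.91 on the log2 scale. At 6 h it had 676, 886 and 1169 counts (lowest, median, highest) in ipsilateral libraries, against 464, 632 and 664 in contralateral libraries. The sides did not overlap, and Grm3 rose over all genotypes by 0.54 ± 0.14 (limma adjusted p = 0.00329), to 1.45 times the contralateral level. The highest value, 1169, was that of the labelled Neil1-KO library that stood apart, and without both such libraries the rise was 0.37 (adjusted p = 0.0309). At 3 h the counts were 753, 882 and 1418 against 707, 774 and 879 (0.25 ± 0.14, limma adjusted p = 0.172). From 3 h to 6 h, Grm3 changed by -0.38 ± 0.14 on the contralateral side (limma adjusted p = 0.254). On the ipsilateral side it changed by -0.10 ± 0.14 (limma adjusted p = 0.688), and neither change was called.

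Within genotypes the Grm3 differences at 6 h were close to each other, 0.51 ± 0.24 in labelled Neil1-KO (adjusted p = 0.0945), 0.56 ± 0.24 in Neil2-KO (adjusted p = 0.0961) and 0.54 ± 0.24 in WT (adjusted p = 0.116), none of them called by limma. With the animal as a block, each passed the test, at limma adjusted p = 0.0276 in labelled Neil1-KO, 0.0279 in Neil2-KO and 0.0382 in WT. Astrocyte markers were mixed, 4 of 10 higher and 3 of 10 lower at 6 h. Sox9 (1.56 ± 0.13) and Gfap (0.67 ± 0.11), the second a filament protein of reactive astrocytes, were among those that rose, and Gjb6 (-0.96 ± 0.13), a gap junction protein, and Fgfr3 (-0.71 ± 0.13) fell. Their sums were 29282 to 58391 in ipsilateral and 33272 to 35258 in contralateral libraries at 6 h, and their part in the Grm3 result was not tested.

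Grm2, a presynaptic receptor of granule cell axons, was not called over all genotypes, at -0.00 ± 0.16 at 3 h (limma adjusted p = 0.992) and 0.23 ± 0.16 at 6 h (limma adjusted p = 0.25). It was higher on the injured side in 6 animals and lower in 6. In WT at 6 h it passed the test, with 720 and 1194 counts in ipsilateral and 543 and 378 in contralateral libraries (1.03 ± 0.27, limma adjusted p = 0.0132). The call was lost without ipsilateral replicate 2, the library that stood apart (0.67, adjusted p = 0.184), and without contralateral replicate 2 (0.77, adjusted p = 0.162). Both WT ipsilateral libraries at 6 h were high in thalamus markers, with sums of 3190 and 3602 against 2339 and 2693 on the contralateral side, and Tcf7l2, a thalamic transcription factor, had 582 and 940 against 178 and 153 counts. The thalamus sums at 6 h were 2590 and 2991 ipsilateral against 2334 and 2443 contralateral in labelled Neil1-KO. In Neil2-KO they were 2274 and 2404 against 2125 and 1827. The part of these markers in the WT Grm2 value was not tested. Mean WT Grm2 counts were 953 at 3 h and 957 at 6 h on the ipsilateral side, and 1011 and 461 on the contralateral side. Grm2 at 6 h was -0.24 ± 0.27 in labelled Neil1-KO mice and -0.11 ± 0.27 in Neil2-KO mice, both not called.

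Grm7, the group III receptor of the presynaptic active zone, was lower on the injured side in 12 of 12 animals. At 6 h labelled Neil1-KO mice had 700 and 367 counts in ipsilateral and 1170 and 1250 in contralateral libraries (-1.25 ± 0.21, limma adjusted p = 0.000157). Neil2-KO mice had 601 and 820 against 1296 and 1360 (-0.92 ± 0.21, limma adjusted p = 0.00359), and without ipsilateral replicate 1 the call was lost (-0.69, adjusted p = 0.0785). WT mice had 889 and 1051 against 1162 and 1159, a difference that was not called (-0.26 ± 0.21, adjusted p = 0.399). The sides did not overlap over the 6 libraries each, and both knockouts lay below all WT values on the ipsilateral side. Without the labelled Neil1-KO replicate 2 that stood apart, the difference in that genotype was -0.79 (adjusted p = 0.00232). Over all genotypes Grm7 fell by 0.81 ± 0.12 at 6 h (limma adjusted p = 2.2e-05). At 3 h it fell by 0.40 ± 0.12 (limma adjusted p = 0.0151), with 753, 1005 and 1124 counts against 1185, 1287 and 1416 and no overlap; without the labelled Neil1-KO ipsilateral replicate 1 the fall was 0.35 (adjusted p = 0.051). At 3 h within genotypes it was called in labelled Neil1-KO (-0.70 ± 0.21, limma adjusted p = 0.0266), a call lost without any of 3 of its 4 libraries. It was not called in Neil2-KO (-0.28 ± 0.21) or WT (-0.23 ± 0.21).

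**Figure D2:**
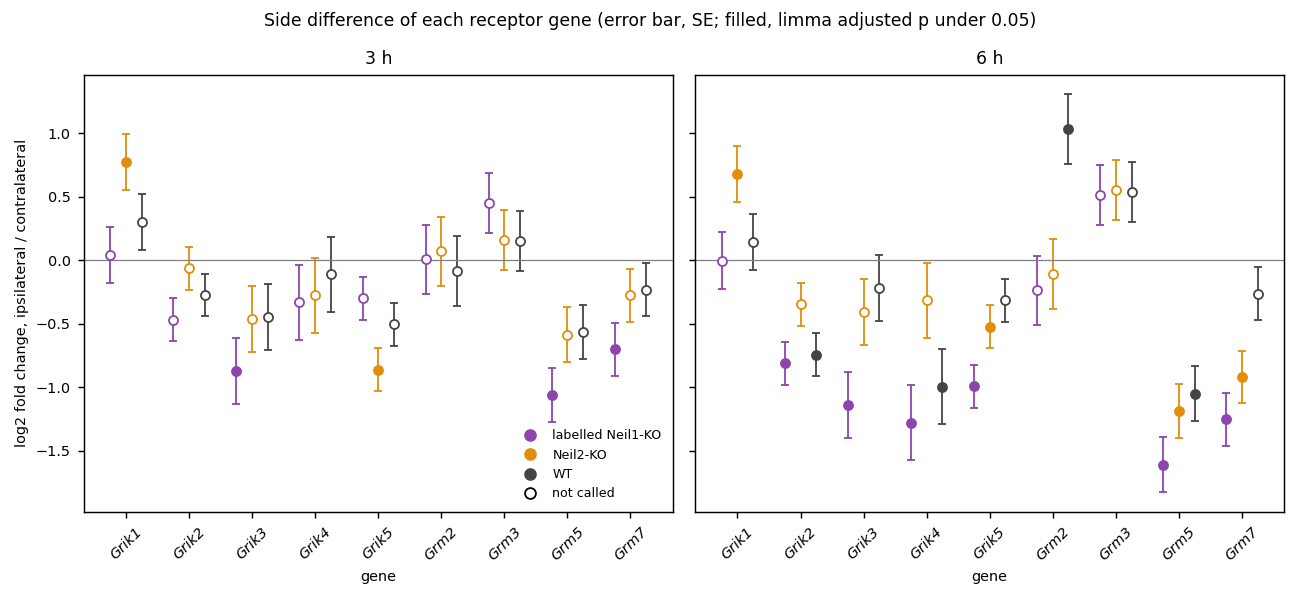
Log2 fold change of each receptor gene, ipsilateral over contralateral (y axis), by gene (x axis) at 3 h and 6 h, for labelled Neil1-KO (purple), Neil2-KO (orange) and WT (grey). Bars are SE and filled points passed limma's test; at 6 h Grm5 is filled in all 3 genotypes, at -1.61, -1.19 and -1.05.

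Within a genotype, the genes called among the 9 were counted beside the share of all genes called there. Labelled Neil1-KO had 3 of 9 called at 3 h (17% of all genes) and 6 of 9 at 6 h (39%), all of them lower (9.85% and 21.4% of all genes were lower). Neil2-KO had 2 of 9 at 3 h (9.24%) and 4 of 9 at 6 h (24.8%), in each case with Grik1 higher (4.29% and 12.2% of all genes at 3 h and 6 h) and the rest lower (4.95% and 12.6%). WT had 0 of 9 at 3 h (4.29%), and DESeq2 called 1 of the 9 and edgeR 0. An unadjusted limma p under 0.05 was found there for 2 of the 9, against 3411 of all 18364 genes. At 6 h WT had 4 of 9 called (20.6%), namely Grik2, Grik4 and Grm5 lower (10.3%) and Grm2 higher (10.4%). Grm5 at 6 h was called in all 3 genotypes, and no other of the 9 genes was, in the fit without the animal as a block.

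These calls do not by themselves show that the genotypes differ, and the difference of the side responses was tested directly. Labelled Neil1-KO minus WT, over both times, none of the 9 passed (limma; 0 of all 18364 genes did, and 2652 had an unadjusted p under 0.05; DESeq2 called 2 and edgeR 0). The lowest values were -0.73 ± 0.21 for Grm7 (limma adjusted p = 0.303) and -0.68 ± 0.26 for Grik3 (limma adjusted p = 0.303). With a single library left out, calls could appear among all genes tested, not only among the 9. Without the labelled Neil1-KO ipsilateral replicate 1 at 6 h, Grm7 (-0.96), Grm5 and Grik3 passed. This left the library that stood apart as the only one of its group. Without the replicate 2 of that group, which stood apart, the values were nearer 0, at -0.50 for Grm7, -0.52 for Grik3 and -0.28 for Grm5, and without both libraries that stood apart they were -0.44, -0.30 and -0.33 in this order of genes, none of them called. Neil2-KO minus WT, the 9 values lay between -0.49 (Grm2) and 0.50 (Grik1), and none passed (limma; 0 of all genes, 976 with an unadjusted p under 0.05, DESeq2 1 and edgeR 0).

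Knockout and WT libraries were next set against each other within a side, averaging 3 h and 6 h. On the contralateral side none of the 9 genes was called against WT in labelled Neil1-KO (0.103% of all genes called) or in Neil2-KO (0.0817%), the log2 fold changes lying between -0.19 and 0.11 and between -0.33 and 0.21. On the ipsilateral side Grm7 was the only one of the 9 called in labelled Neil1-KO, where 9.31% of all genes were called, 7.4% lower. It had 753 and 956 counts at 3 h and 700 and 367 at 6 h in labelled Neil1-KO, against 1124 and 1068 at 3 h and 889 and 1051 at 6 h in WT. The lowest WT library lay below the highest labelled Neil1-KO library, and the log2 fold change was -0.65 ± 0.15 (limma adjusted p = 0.0143). The call was lost without either ipsilateral library that stood apart (labelled Neil1-KO replicate 2, -0.42, adjusted p = 0.0531; WT replicate 2, -0.59, adjusted p = 0.0673), without labelled Neil1-KO replicate 1 at 3 h (-0.56, adjusted p = 0.0814) and without WT replicate 1 at 3 h (-0.63, adjusted p = 0.077).

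Grik3 (-0.57 ± 0.18, limma adjusted p = 0.0572), Grik5 (-0.33 ± 0.12, adjusted p = 0.0829) and Grm5 (-0.42 ± 0.15, adjusted p = 0.0853) missed the threshold in the same comparison. Grik3 was called by DESeq2 (adjusted p = 0.0199). Without both libraries that stood apart, the values were -0.19 for Grik3, -0.09 for Grik5 and -0.22 for Grm5. Without labelled Neil1-KO replicate 2 at 6 h alone they were -0.41, -0.22 and -0.17 in the same order of genes, and without WT replicate 2 at 6 h alone -0.36, -0.20 and -0.47. All 3 were called without labelled Neil1-KO replicate 1 at 6 h (Grm5 at -0.67, adjusted p = 0.000207). In this comparison, 7 of 10 neuron markers fell and 0 rose, among them Syt1, the calcium sensor of vesicle release (-0.59 ± 0.10, limma adjusted p = 0.00558). The part of these markers in the Grm7 value was not tested. Without both libraries that stood apart, Grm7 was at -0.36 (adjusted p = 0.164), and the genes called among all those tested numbered 107, against 1710 with them. Between Neil2-KO and WT ipsilateral libraries none of the 9 was called (0.109% of all genes called), with Grm7 at -0.30 ± 0.15 (limma adjusted p = 0.858) and Grik4 at 0.21 ± 0.21 (adjusted p = 0.913).

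**Figure D3:**
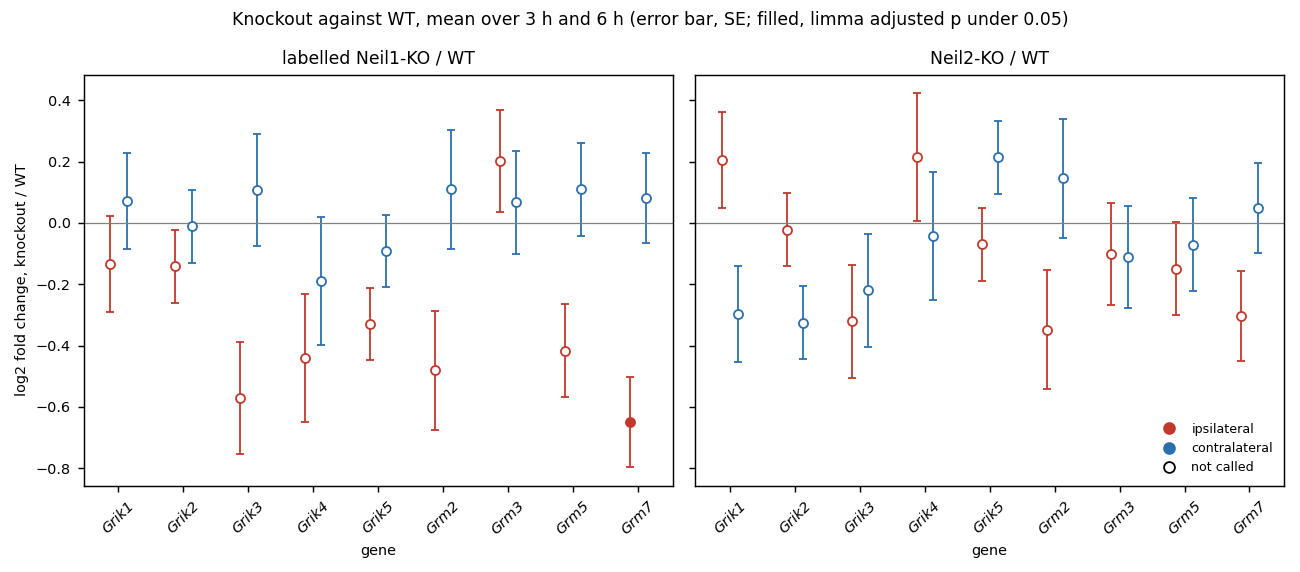
Log2 fold change of each receptor gene, knockout over WT as the mean over both times (y axis), by gene (x axis), for labelled Neil1-KO (left) and Neil2-KO (right). Red points are ipsilateral and blue points contralateral, bars are SE, and the only filled point, which passed limma's test, is ipsilateral Grm7 in labelled Neil1-KO at -0.65.

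On the injured side 4 of the 9 genes were lower at 6 h than at 3 h, and on the opposite side none was called. At 6 h relative to 3 h, ipsilateral Grm5 fell by 0.56 ± 0.12 (limma adjusted p = 0.00826), Grik2 by 0.40 ± 0.10 (adjusted p = 0.0123), Grm7 by 0.47 ± 0.12 (adjusted p = 0.0162) and Grik4 by 0.59 ± 0.17 (adjusted p = 0.0311), in the limma fit over all genotypes. Of all genes, 12.7% were called here, 7.52% lower. Grm5 had 1675, 3204 and 3653 ipsilateral counts (lowest, median, highest) at 6 h and 3191, 4541 and 4994 at 3 h, so the times overlapped in a narrow range. Without both libraries that stood apart, these falls were called at -0.35 for Grm5, -0.26 for Grik2 and -0.36 for Grm7, and without the animals with high Xist at -0.33, -0.25 and -0.34 in the same order of genes. The Grik4 call was lost without any of 7 libraries and was -0.23 (adjusted p = 0.155) without both libraries that stood apart, and the Grm7 call was lost without any of 4. On the contralateral side none of the 9 was called (0.332% of all genes), with Grm5 at -0.01 ± 0.12 and Grik2 at -0.04 ± 0.10. Grm2 had the largest contralateral change, -0.53 ± 0.16 (limma adjusted p = 0.169), and was called by DESeq2 (adjusted p = 0.0418) and without both libraries that stood apart (adjusted p = 0.0476).

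Whether the side difference itself grew between the times was tested as well, and none of the 9 genes passed (1.9% of all genes did). The side difference at 6 h minus that at 3 h was -0.54 ± 0.18 for Grm5 (limma adjusted p = 0.116), -0.63 ± 0.24 for Grik4 (adjusted p = 0.191), -0.36 ± 0.14 for Grik2 (adjusted p = 0.181) and -0.41 ± 0.17 for Grm7 (adjusted p = 0.225). The values of Grik3 (0.01 ± 0.21) and Grik5 (-0.06 ± 0.14) were near 0. Leaving out the labelled Neil1-KO ipsilateral replicate 1 at 6 h made Grm5, Grik2, Grik4 and Grm7 pass, and leaving out WT ipsilateral replicate 1 at 6 h made Grik4 pass.

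The 9 genes differed in level as well as in direction. Per kilobase of annotated exon (normalized count divided by the exonic length in GENCODE M21), contralateral Grik5 stood highest at 1589 ± 270 and Grm5 next at 876 ± 68.9 (SD, n = 12 libraries). The ranges of these 2 genes overlapped neither each other nor those of the rest. Below them came Grm7 (294 ± 20.8), Grm3 (227 ± 37.0), Grik3 (214 ± 34.3), Grik4 (210 ± 24.6), Grm2 (158 ± 45.7), Grik2 (157 ± 19.1) and Grik1 (148 ± 26.3), all levels per kilobase, and each overlapped its neighbours in this order. On the ipsilateral side Grik5 (1062 ± 175) and Grm5 (450 ± 115) kept the first places per kilobase, Grm3 (301 ± 67.5) stood above Grm7 (200 ± 52.2), and Grik2 (116 ± 21.6) was the lowest. Grm5 and Grm3 overlapped there. Annotated exons pool all isoforms, so these levels compare genes only roughly.

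Several of these genes are very long, and length went with the side difference over all genes tested. Of 17922 genes with an annotated span in GENCODE M21 (GRCm38, matched by symbol), the 536 longer than 300 kb had a median log2 fold change of -0.46 at 6 h, and 63.6% of them were called lower and 7.46% higher. For the 6006 genes under 10 kb the median was 0.10, with 12.3% called lower. Grm7 spans 922 kb on chromosome 6, Grik2 spans 694 kb on chromosome 10, Grm5 spans 551 kb on chromosome 7, Grik4 spans 426 kb on chromosome 9 and Grik1 spans 394 kb on chromosome 16. Of these 5, Grm5 (-1.28) lay below the lower quartile of its length class (-0.89) and Grik1 (0.27) above the upper quartile (-0.08), and the other 3 lay between the quartiles. Grik5, with 62.5 kb on chromosome 7, lay below the lower quartile of its class (-0.32), and so did Grik3, with 223 kb on chromosome 4 (-0.52). Grm3, with 240 kb on chromosome 5, lay above the upper quartile of that class (0.21). Grm2, the shortest at 13 kb on chromosome 9, lay within its class. The part of gene length in these results was not tested.

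**Figure D4:**
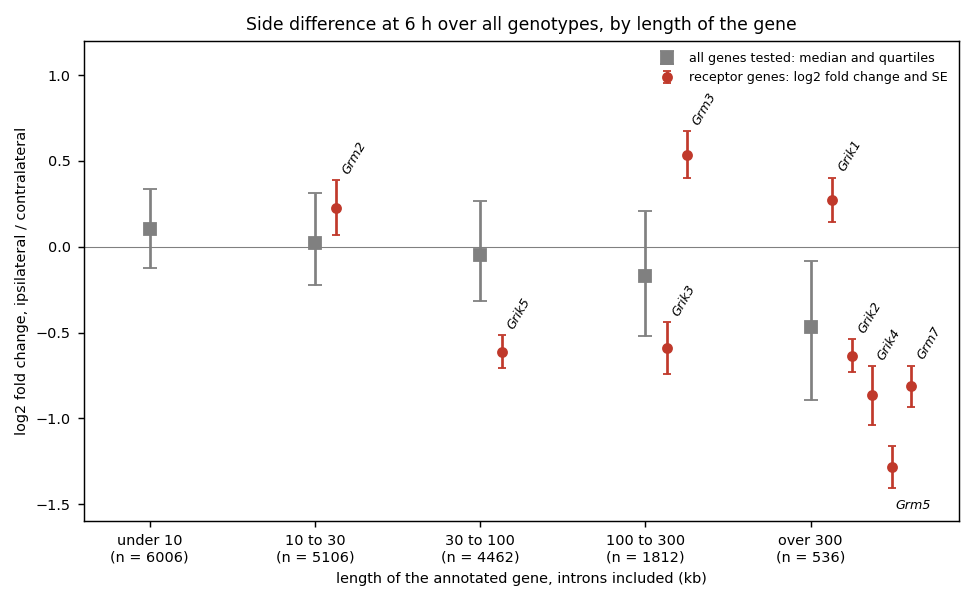
Log2 fold change at 6 h over all genotypes, ipsilateral over contralateral (y axis), by length of the annotated gene in kb (x axis). Grey squares and bars are the median and quartiles of all genes tested in each length class and red points are the receptor genes with SE; the class over 300 kb has a median of -0.46, with Grm5 at -1.28 below it and Grik1 at 0.27 above it.

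The other genes of these pathways were counted from lists. Grm4 and Grm8, metabotropic receptors of group III, were not called at either time over all genotypes, and Grm6, of the same group, did not pass the filter. Kainate receptor partners fell in 7 of 9 cases and rose in 1 at 6 h (6 lower and 0 higher at 3 h), with a median log2 fold change of -0.67 at 6 h. Neto1, the auxiliary subunit of hippocampal kainate receptors, was at -0.99 ± 0.12, Nrxn3, a presynaptic adhesion protein, at -1.01 ± 0.11, and the scaffold genes Dlg4 and Grip1 were at -0.67 ± 0.09 and -0.57 ± 0.08. Klhl17 was not among the genes tested.

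Scaffolds and effectors of group I receptors fell in 11 of 13 cases at each time, with 2 higher at 6 h and 1 at 3 h. Homer2, which links Grm5 to its effectors, was at -0.78 ± 0.06 at 6 h, Gnaq, the G protein subunit, at -0.83 ± 0.09 and Itpr1, the calcium release channel, at -0.75 ± 0.08. Arc, an activity-induced gene, rose by 2.41 ± 0.23. Tamalin was not among the genes tested. Partners and effectors of group II and III receptors fell in 9 of 15 cases and rose in 3 at 6 h (8 lower and 1 higher at 3 h). The potassium channel genes Kcnj3 (-1.31 ± 0.11) and Kcnj6 (-1.29 ± 0.17), opened by Gi/o-coupled receptors, fell, and of the inhibitory G protein subunits Gnai1 fell (-0.60 ± 0.09) and Gnai2 rose (0.60 ± 0.10). Genes of glutamate transport, synthesis and clearance fell in 4 of 10 cases and rose in 1 at 6 h, with Slc17a7, the vesicular transporter, at -1.10 ± 0.13 and Slc1a1, the neuronal uptake carrier, at -0.84 ± 0.08. Of all genes tested, 24.7% were lower and 24% higher at 6 h, and 17.4% were lower and 14.1% higher at 3 h.

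Across the 24 libraries, the genes whose log2 values were most like those of a receptor gene were named by Pearson's r. The values of different genes share the libraries and the split of these into an injured and an opposite side, so r is given only as a measure of likeness. For Grm5 the first was Slc8a1 (r = 0.989), for Grik5 Dlgap3 (0.983), for Grm7 Pgm2l1 (0.977), for Grik4 Ak5 (0.970), for Grik2 Nkain3 (0.947) and for Grik3 Trappc10 (0.937). Grm3, the gene that rose, was most like Bmper (r = 0.914), and Grik1 (Fgf11, r = 0.857) and Grm2 (Krt77, r = 0.844) had the lowest best likeness.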

How the data were processed

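RNA was isolated with the AllPrep kit for Illumina sequencing, per the labels' protocols. Reads were processed with Trim Galore, HISAT2, SAMtools, featureCounts and DESeq2 on GRCm39 (mm39), per the submitters' processing notes, and versions and strand settings are not given in the sources used here, so antisense reads may be counted with the genes they overlap. The signal that the authors deposited is a read count divided by the library's size factor. Within each library 100% of these values were whole multiples of the value of 1 read (tolerance 1e-06), which gave the reads for the count tests. Of 33084 lines, 10770 (32.6%) carried no gene name and were left out.

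Genes with a value of at least 10 in at least 2 libraries were tested on log2(value + 1) with limma-trend (limma 3.58.1, R 4.3.3). The fit had 12 group means, a shared spread and 12 residual degrees of freedom, and p-values are two-sided with Benjamini-Hochberg adjustment over all 18364 genes tested in each of 17 comparisons. Comparisons over all genotypes average the 3 genotypes. The comparisons of a genotype, side or time share libraries with each other. Fold changes on this scale understate those of low genes, and the spread behind each p-value is that between animals. The labels mention no molecular identifiers, so the depth of a gene speaks to counting error only.

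Titles set the groups, because NEIL1-KO stands as the genotype tag of the 8 libraries titled NEIL2-KO. Ipsilateral and contralateral libraries that share genotype, time and number were taken as 1 animal, since the design text has both hippocampi taken from each of 2 replicates, though it names no animal. Xist was high on both sides in the same 3 animals. The correlation of same-numbered deviations was 0.271, 0.0537 and -0.00576 at 3 h in labelled Neil1-KO, Neil2-KO and WT, and 0.155, 0.0350 and -0.00334 at 6 h.

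Alternatives were a pseudocount of 5, no filter, edgeR 4.0.16 (quasi-likelihood, TMM) and DESeq2 1.42.0 (Wald) on the reads, fits of the compared groups only, the animal as a block, leaving out the animals with high Xist and each library in turn. Leaving out both libraries that stood apart was chosen after seeing the data. Every setting that left out libraries left 1 library in each group it touched, and the part of this in lost or gained calls was not tested. The receptor genes and lists were chosen with earlier results of these data known. Named beside the 9 genes are up to 4 genes of a list with the smallest adjusted p at 6 h and the genes with the highest Pearson r. The test was tried on simulated counts with the same setting of spread for every gene. These had no shared animals and no libraries that stood apart, so that trial does not measure how the test performs here. Gene lengths came from GENCODE M21 on GRCm38, by symbol, and no coordinates were carried between builds. 1 gene of the pathway lists is not reported here.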

Additional observations from a re-analysis of the deposited data

How the results depend on the processing

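Over all genotypes at 6 h the calls of 7 genes (Grik2, Grik3, Grik4, Grik5, Grm3, Grm5 and Grm7) were lost under none of the alternatives, and the count was 7 or 8 of 9 throughout. No log2 fold change of a called gene changed sign. Among the log2 fold changes of single genes under alternatives other than leaving out 1 library, 1080 stayed on their side of the threshold, 15 lost and 30 gained the call. Calls in 1 genotype, which rest on 2 animals, depended more on the setting. In WT at 3 h limma called 0 of the 9, against 1 with DESeq2, 1 with only the compared groups, 1 without the animals with high Xist and 2 without both libraries that stood apart. In Neil2-KO at 3 h it was 2, against 4 with only the compared groups. Labelled Neil1-KO against WT on the ipsilateral side gave 1, against 2 with DESeq2 and 0 without both libraries that stood apart, and 6 h against 3 h on the contralateral side gave 0, against 1 with DESeq2 and 1 without both of these libraries.

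Leaving out 1 library at a time gave 0 to 2 called genes in WT at 3 h (2 without either labelled Neil1-KO ipsilateral library at 6 h, through the shared spread) and 1 to 4 in WT at 6 h (1 without ipsilateral replicate 2, 2 without contralateral replicate 2). In labelled Neil1-KO it gave 0 to 5 at 3 h (0 without ipsilateral replicate 1, 5 without ipsilateral replicate 2, 1 without either contralateral library) and 4 to 7 at 6 h. Neil2-KO had 0 to 3 at 3 h (0 without ipsilateral replicate 2) and 1 to 6 at 6 h (1 without ipsilateral replicate 1). The range was 4 to 6 over all genotypes at 3 h, 0 to 4 for the change of the side difference with time, and 0 to 3 for the side response of labelled Neil1-KO minus WT, both highest without labelled Neil1-KO ipsilateral replicate 1 at 6 h. Labelled Neil1-KO against WT on the ipsilateral side had 0 to 7, with 7 without that library and 4 without WT ipsilateral replicate 1 at 6 h. For 6 h against 3 h on the ipsilateral side it was 2 to 6, with 2 without any of labelled Neil1-KO replicate 2 at 3 h, WT replicate 1 at 3 h or Neil2-KO replicate 1 at either time.

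With the animal as a block, the call of Grik2 over all genotypes at 3 h was lost and Grm3 gained the call in each genotype at 6 h (limma adjusted p = 0.0276 in labelled Neil1-KO, 0.0279 in Neil2-KO and 0.0382 in WT), and the block changed no other call of the 9 genes. Counts over all genes moved more. They also moved in every one of these comparisons when a single library was left out, so those ranges are not particular to the 9 genes. Without both libraries that stood apart, labelled Neil1-KO against WT on the ipsilateral side had 107 genes called, against 1710 with them, and the sides of labelled Neil1-KO at 6 h had 4365, against 7156. Without the animals with high Xist these counts were 710 and 2996, that of 6 h against 3 h on the ipsilateral side was 1167, against 2325, and that of the change of the side difference with time was 24, against 348. With only the compared groups, the side counts were 1852, against 3130, in labelled Neil1-KO at 3 h and 2685, against 7156, at 6 h, 2790, against 1696, in Neil2-KO at 3 h, and 1946, against 787, and 2509, against 3785, in WT at 3 h and 6 h. DESeq2 called 1287, against 787, in WT at 3 h, 798, against 348, for the change with time and 268, against 61, for 6 h against 3 h on the contralateral side. The cause was not tested.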
